A study of Mus musculus with 12 samples.

Results

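Tolerogenic dendritic cells exposed to lipopolysaccharide (LPS) were compared with control dendritic cells that had received no stimulus, to find which genes of the stimulated tolerogenic cells stayed at, or fell below, the level of resting control cells. The comparison took in 6 of the 12 libraries of the series, the 3 titled TolDC + LPS and the 3 titled BMDC, and 13141 of 31054 gene identifiers, those that passed a filter on low counts. The series studies tolerogenic dendritic cells as a protection in acute kidney injury. All 12 libraries came from live CD11c-enriched dendritic cells that were grown from wild-type (WT) C57BL6 mouse bone marrow and taken on day 7. The BMDC group had no treatment ("Nil"), and the TolDC + LPS group, here called LPS-exposed TolDC, was labelled VitD/IL10+LPS: vitamin D3 and interleukin 10 (IL-10) had been used to make the cells tolerogenic, and LPS had been added. The other 2 groups, control cells with LPS (BMDC + LPS) and unstimulated tolerogenic cells (TolDC, labelled VitD/IL10), are given only side by side with the members described here. They share libraries with this comparison, so their values are no separate evidence. The compared groups differ in 2 respects at once, the tolerogenic treatment and the LPS, and the parts of the treatment cannot be told apart. Doses and exposure times are not given in the sources used, and the cultures stand for dendritic cells made in a dish, not for cells taken from an animal. The labels do not tell whether replicates came from separate cultures or mice, and the p-values therefore reflect only the variation among these libraries, which may be technical.

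LPS, a part of the outer wall of Gram-negative bacteria, is sensed by Toll-like receptor 4 and its partners and starts signalling through NF-kB and interferon regulatory factors. A dendritic cell that receives it matures: it raises co-stimulatory ligands such as CD80, CD86 and CD40, loads peptides on MHC molecules, secretes cytokines and chemokines, and moves to lymph nodes by its receptor CCR7. Tolerogenic dendritic cells are known for low co-stimulation and for restraining T cells, and vitamin D3 and IL-10 are both used to make them in culture.

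Levels are CPM, a gene's share of the assigned reads of its library on a fixed total, scaled by TMM factors. A log2 difference is LPS-exposed TolDC minus BMDC, with its standard error (SE), and a gene was called higher or lower at an edgeR quasi-likelihood adjusted p below 0.05. A gene was said to be at the BMDC level when the 95% interval of its log2 difference lay wholly within a 1.5-fold difference either way. A gene can meet both definitions, since a small difference can be called and still lie within the margin. Group means are given ± SD with n = 3 libraries, and a pair of means has BMDC first, except where LPS-exposed TolDC is set against it.

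The BMDC libraries held 22605855 to 30007479 assigned reads and the LPS-exposed TolDC libraries 30397084 to 41764975, so every library of the second group was deeper. The floor of 3 counts over a group was 0.0364 CPM in BMDC and 0.0298 CPM in LPS-exposed TolDC on the TMM scale, folds against it use the counts pooled over a group, and such floors cover counting error only. The libraries numbered 1 stood apart from those numbered 2 and 3 over the tested genes. Between BMDC libraries, the chi-square per degree of freedom was 11.07 for 1 against 2, 10.16 for 1 against 3 and 2.2 for 2 against 3. In LPS-exposed TolDC it was 11.17, 7.55 and 2.3. Libraries 2 and 3 were thus much alike, and whether they are independent replicates is not known. Granulocyte genes showed the split in both groups. S100a9, a calcium-binding protein of neutrophils, was at 130.2, 709 and 685 CPM in BMDC replicates 1, 2 and 3 and at 45.3, 147 and 122 CPM in LPS-exposed TolDC. Its difference (-2.27 ± 0.93) was not called, but was called without BMDC replicate 1 (-2.73), without the 4 libraries numbered 1 (-2.38) and by DESeq2 (-2.29). Of the 15 neutrophil markers 8 were lower, all by at least 2-fold, and Mmp8, Csf3r and Lcn2 were higher (median -2.17), with 12 lower and 3 higher without the 4 libraries numbered 1. Among the 8, S100a8 lost its call under 9 alternatives, Mpo and Fcnb under 7 each, Ngp under 4 and Ltf under 1. For S100a8, Mpo, Fcnb and Ngp these included leaving out single libraries. The 15 markers summed to 862 to 2939 CPM in BMDC and 3152 to 4151 CPM in LPS-exposed TolDC, where Lcn2 and Mmp8 were the highest of them. Of 15 tested markers of mast cells, basophils and eosinophils (19 listed), Cma1, Kit and Hdc were higher and Siglecf and Ear2 lower (median 0.94), with 9 higher and 4 lower without the libraries numbered 1. The call of Cma1 was lost under 5 alternatives, among them leaving out BMDC replicate 1 or 2 or TolDC + LPS replicate 2. All 19 summed to 589 to 785 CPM and 291 to 607 CPM, and Tpsab1 had no counts in either group. The markers of T and NK cells (11 of 14 tested, 1 higher, or 9 without the libraries numbered 1) summed to 8.12 to 28.4 and 21.3 to 61.5 CPM, and those of B and plasma cells (6 of 10 tested) to 4.55 to 10.4 and 5.88 to 11.5 CPM. The monocyte markers (11 tested, 5 higher and 5 lower, median 0.68) summed to 80850 to 87400 CPM in BMDC and 34810 to 35430 CPM in LPS-exposed TolDC. Such a sum follows the most abundant markers, and here it fell while the median was above 0. The macrophage markers (11 of 14 tested, 7 lower and 3 higher) summed to 917 to 1007 and 836 to 1105 CPM. Markers of plasmacytoid dendritic cells (4 of 7 tested) summed to 119.8 to 123.0 and 268.8 to 287.6 CPM, and those of type 1 conventional dendritic cells (5 of 7) to 204.5 to 223.9 and 123.7 to 127.4 CPM. Markers of red cells and megakaryocytes (6 of 13) summed to 34.9 to 41.3 and 46.2 to 56.3 CPM with Car1 at 0, and those of stromal and endothelial cells (5 of 12) to 206.2 to 222.8 and 315.4 to 337.6 CPM with Col1a2 and Cxcl12 at 0. The part of these other cells in the results was not tested. BMDC replicate 3 stood apart in genes high in TolDC. Of 29 genes that had at least 10 CPM in TolDC and were more than 50-fold above BMDC + LPS there, 22 were highest in replicate 3 among the BMDC libraries, 6 in replicate 1 and 0 in replicate 2, several by a small margin, and 1 had no counts in BMDC. Cyp24a1, the enzyme that degrades active vitamin D, was at 0, 0.0324 and 13.1 CPM in BMDC replicates 1, 2 and 3, and the excess of replicate 3 was 0.744% of the TolDC level. The reason was not tested, and the 4 of these genes that are described below are given with and without that library. Without BMDC replicate 3 the counts of called genes were 4951 higher and 4915 lower, with 5259 genes at the BMDC level, and without the 4 libraries numbered 1 they were 5213, 5046 and 5646.

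The label of dendritic cells was checked against its markers. Of 9 tested, 5 were lower (Itgax, Flt3, Zbtb46, Dpp4 and Kmo) and 3 higher (H2-Ab1, Cd74 and Ciita, of MHC class II presentation), with a median of -0.59, and the summed level was 6767 to 7087 CPM in BMDC and 8923 to 10670 CPM in LPS-exposed TolDC. Itgax, which encodes CD11c, was at 2253, 1981 and 1997 CPM in BMDC and at 1501, 1292 and 1342 CPM in LPS-exposed TolDC (log2 difference -0.59 ± 0.09, edgeR adjusted p = 6.81e-05). Zbtb46, a transcription factor of conventional dendritic cells, was at 31.9 ± 2.25 and 16.4 ± 1.62 CPM (-0.96 ± 0.09, edgeR adjusted p = 1.38e-07). Flt3, a receptor of dendritic cell precursors, was at 0.635, 0.908 and 0.775 CPM in BMDC and 0.0653, 0.202 and 0.0495 CPM in LPS-exposed TolDC (-2.90 ± 0.55, and -3.67 without TolDC + LPS replicate 2). Of the 11 tested macrophage markers 7 were lower, 6 by at least 2-fold, and Adgre1, Csf1r and Marco were higher (median -3.74). Adgre1, the F4/80 antigen, was at 31.3, 39.9 and 40.8 CPM in BMDC and at 457, 634 and 589 CPM in LPS-exposed TolDC, while Mertk, a receptor for dead cells, was at 162, 137 and 131 CPM in BMDC and 9.47, 10.6 and 9.93 CPM in LPS-exposed TolDC. In bulk samples such as these, fewer cells of a type and less RNA per cell cannot be told apart.

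Of the 13141 genes, 5164 were called higher in LPS-exposed TolDC (39.3%) and 4939 lower (37.6%). With a difference of at least 2-fold as well, 1638 were higher (12.5%) and 1819 lower (13.8%). A total of 5485 genes (41.7%) lay at the BMDC level, among them 1889 called slightly higher and 1631 called slightly lower, and 8793 genes (66.9%) were either at the BMDC level or called lower. Another 1073 genes (8.17%) were neither called nor shown to be at the level, since their intervals were too wide. The groups did not overlap for 78.8% of the genes. The median log2 difference over all genes was 0.0212. The counts of every list below are to be read beside these shares of all genes, 39.3% higher, 37.6% lower and 41.7% at the level.

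**Figure D1:**
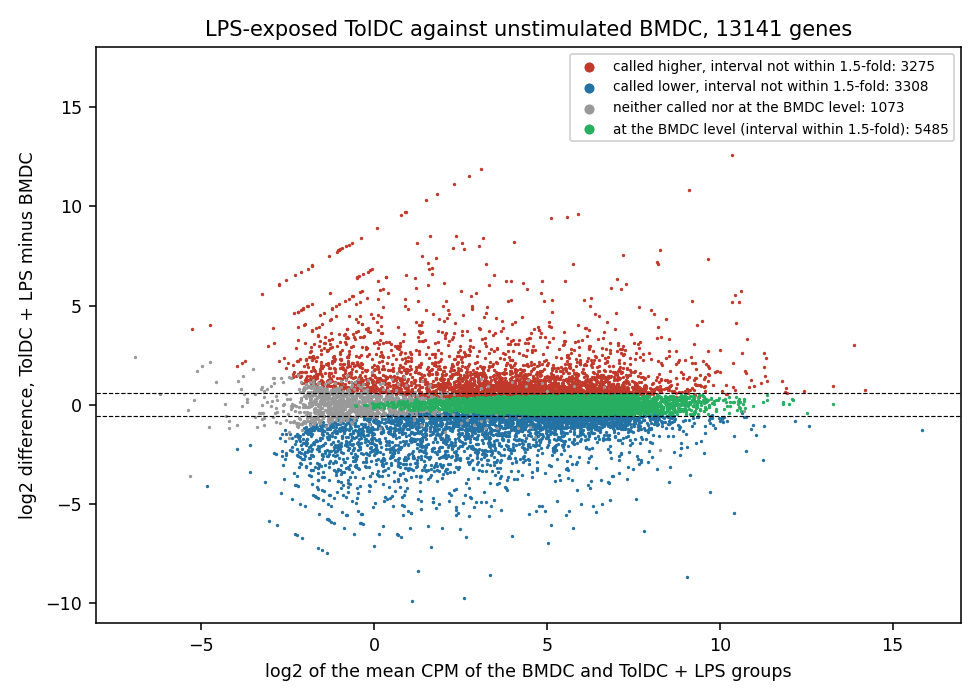
Log2 difference between LPS-exposed TolDC and BMDC (vertical axis) against the log2 of the mean CPM of both groups (horizontal axis), with a point for each of 13141 genes and dashed lines at a 1.5-fold difference. Green points are the 5485 genes at the BMDC level, red and blue the 3275 and 3308 called genes outside that class, and grey the 1073 genes that are neither.

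The co-stimulation and maturation genes included members above, below and at the resting level. Of the 24 tested, 7 were called lower, 12 higher and 9 lay at the BMDC level, against 37.6%, 39.3% and 41.7% of all genes, with a median log2 difference of 0.16 (25 were listed). Cd86, a ligand that gives T cells their second signal, was at 34.5, 37.6 and 35.8 CPM in BMDC replicates 1, 2 and 3 and at 20.2, 20.3 and 21.0 CPM in LPS-exposed TolDC. Every LPS-exposed TolDC library lay below every BMDC library, with a log2 difference of -0.81 ± 0.05 (edgeR adjusted p = 6.32e-12). Beside these, Cd86 was at 132 ± 3.11 CPM in BMDC + LPS and 15.03 ± 0.376 CPM in TolDC. Cd83, a surface marker of mature dendritic cells that steadies MHC class II and CD86, was at 151, 152 and 152 CPM in BMDC and at 63.2, 57.6 and 57.2 CPM in LPS-exposed TolDC. It lay below the resting control level in all 3 libraries (-1.36 ± 0.04, edgeR adjusted p = 1.76e-15), against 362 ± 17.4 CPM in BMDC + LPS. Cd48, a ligand of the receptor CD244, was lower as well, at 43.4 ± 1.31 against 115 ± 3.03 CPM (-1.41 ± 0.05, edgeR adjusted p = 2.11e-14). Cacnb3, a calcium channel subunit that marks mature dendritic cells, was at 29.0 ± 0.533 against 56.2 ± 3.08 CPM (-0.95 ± 0.07).

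Other maturation genes of LPS-exposed TolDC lay at the level of resting control cells. Ccr7, the receptor that guides dendritic cells to lymph nodes, was at 164, 186 and 189 CPM in BMDC and at 202, 182 and 192 CPM in LPS-exposed TolDC. The groups overlapped, and the 95% interval of the log2 difference ran from -0.06 to 0.25. Cd80, the other B7 ligand of CD28, was at 96.5, 95.6 and 92.2 CPM in BMDC and 125, 118 and 117 CPM in LPS-exposed TolDC, slightly higher in every LPS-exposed library (0.34 ± 0.04, edgeR adjusted p = 1.09e-06) yet within the margin (interval 0.25 to 0.44). Beside them, BMDC + LPS held 600.0 ± 9.79 CPM of Ccr7 and 292 ± 16.1 CPM of Cd80. Being at the BMDC level does not mean that LPS left a gene unchanged in tolerogenic cells. Ccr7 had 3912 counts over the TolDC libraries and 19346 over those of LPS-exposed TolDC, not scaled for depth. The median of the whole list was -1.225 for TolDC minus BMDC and 1.282 for TolDC + LPS minus TolDC. Cd44, a hyaluronan receptor, and Slamf7, a receptor of the SLAM family, also lay at the BMDC level, with log2 differences of -0.17 ± 0.04 and 0.22 ± 0.07. So did Icam1, the adhesion ligand of LFA-1 (0.08 ± 0.05), Tnfsf4, the OX40 ligand (0.08 ± 0.07), and Fscn1, an actin-bundling protein of dendrites (0.26 ± 0.10), 3 genes chosen after their values were seen. Fscn1 lost its call or its place at the level under 8 alternatives, among them leaving out any 1 of the 6 libraries.

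Cd40, which receives help from T cells, was far above the resting level. It was at 9.28, 8.30 and 8.44 CPM in BMDC and 85.6, 78.4 and 80.3 CPM in LPS-exposed TolDC, with no overlap (3.23 ± 0.07, edgeR adjusted p = 4.45e-18), and at 416 ± 26.4 CPM in BMDC + LPS. Slamf1, a self-binding receptor of the SLAM family, was at 89.6 ± 5.47 against 14.6 ± 0.529 CPM (2.61 ± 0.09), and Cd200, a ligand that restrains myeloid cells, at 95.9 ± 5.79 against 13.96 ± 1.22 CPM (2.78 ± 0.07). Thus the members of the list were not held at the resting level alike.

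**Figure D2:**
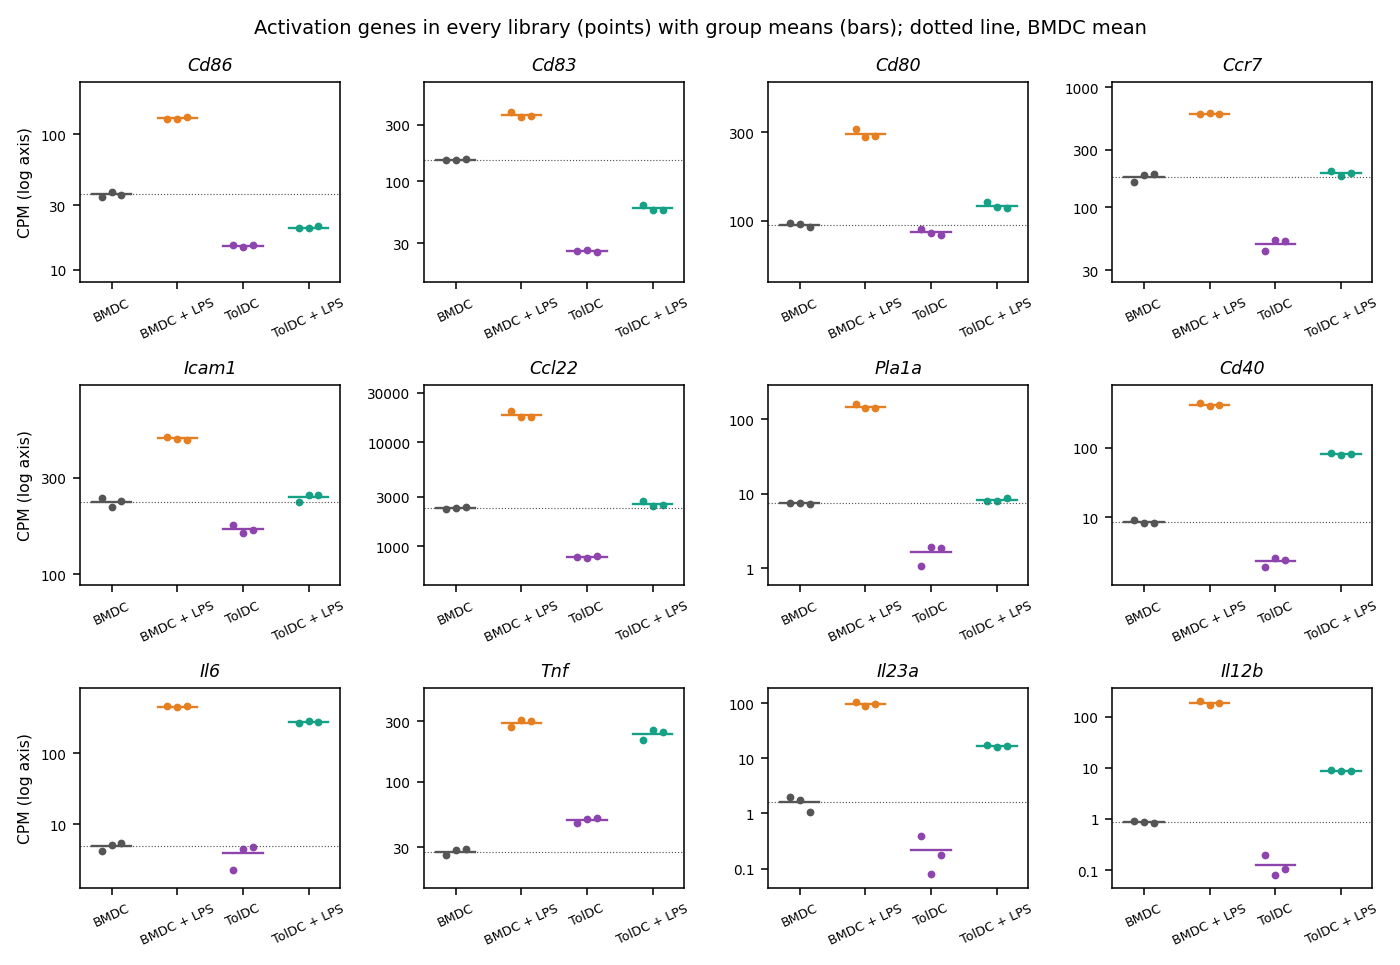
CPM (log axes) of 12 activation genes in every library of the 4 groups, with points for libraries, bars for group means and a dotted line at the BMDC mean. Cd86 and Cd83 of LPS-exposed TolDC lie below the dotted line, Ccr7, Icam1, Ccl22 and Pla1a on or close to it, and Cd40, Il6, Tnf, Il23a and Il12b above it in every library.

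The genes at the BMDC level that exceeded it most in BMDC + LPS form a second description of what the stimulated tolerogenic cells did not hold above rest. These 10 were chosen by the levels given here, which are a description with no test. Ccl22, a chemokine that draws regulatory and Th2 T cells through CCR4 (ENSMUSG00000031779, chromosome 8, 94745590 to 94751699, plus strand of GRCm38), was at 2284, 2316 and 2385 CPM in BMDC and at 2719, 2419 and 2513 CPM in LPS-exposed TolDC. Those levels lay close together, and the interval ran from 0.03 to 0.24 on the log2 scale, while BMDC + LPS held 18266 ± 1377 CPM. The small excess over BMDC was called and lost its call without BMDC replicate 1 or 2 or without TolDC + LPS replicate 1. Pla1a, a phospholipase that acts on phosphatidylserine, was at 7.44, 7.49 and 7.27 CPM in BMDC and 8.03, 8.10 and 8.89 CPM in LPS-exposed TolDC (0.18 ± 0.10, not called), against 149 ± 11.04 CPM in BMDC + LPS.

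Tnfsf15, the cytokine TL1A that co-stimulates T cells, was at 1.91, 1.65 and 1.21 CPM in BMDC and 1.63, 1.28 and 1.49 CPM in LPS-exposed TolDC, with overlapping groups. It was at 97.0 ± 13.4 CPM in BMDC + LPS and 0.129 ± 0.0301 CPM in TolDC. Its interval (-0.58 to 0.31) was close to the margin of 0.58, and it left the class under 7 alternatives, 4 of which left out a single library (BMDC replicate 2 or 3, or TolDC + LPS replicate 1 or 3). Ifit2, an interferon-induced protein that binds viral RNA, was at 16.2, 17.3 and 16.4 CPM in BMDC and 10.8, 17.8 and 16.2 CPM in LPS-exposed TolDC, left the class under 10 alternatives, 5 of them single-library ones (any BMDC replicate, or TolDC + LPS replicate 2 or 3), and was at 84.97 ± 12.4 CPM in BMDC + LPS. Ikzf4, a zinc-finger factor of the Ikaros family, had 13.3 ± 1.17 and 15.6 ± 1.08 CPM (0.23 ± 0.07), and Mfhas1, a regulator of Toll-like receptor signals, 27.8 ± 1.19 and 32.8 ± 2.42 CPM (0.24 ± 0.07). Car2, a carbonic anhydrase that is also a marker of red cell precursors, was at 23.3 ± 0.464 and 20.3 ± 1.08 CPM (-0.20 ± 0.06). Clic5, Sdcbp2 and Slc8a1, the last a sodium and calcium exchanger, complete the 10, with log2 differences of -0.38, -0.28 and 0.05. Leaving out BMDC replicate 2 ended the call of Ikzf4, leaving out BMDC replicate 1 or 2 or TolDC + LPS replicate 1 or 3 that of Sdcbp2, and leaving out any BMDC replicate or TolDC + LPS replicate 3 took Slc8a1 out of the class.

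Some genes lay at the BMDC level although unstimulated TolDC differed widely from BMDC, again chosen by these levels. Lifr, a receptor chain for leukaemia inhibitory factor, was at 14.3, 12.4 and 13.6 CPM in BMDC and 12.5, 13.2 and 11.6 CPM in LPS-exposed TolDC, while TolDC held 52.1 ± 3.90 CPM. Trp53i11, a p53-induced membrane protein, was at 23.8 ± 1.21 CPM in BMDC, 28.3 ± 1.6001 in LPS-exposed TolDC and 133 ± 5.52 in TolDC, and Itga6, an integrin chain that binds laminin, at 5.65 ± 0.234, 4.91 ± 0.409 and 19.98 ± 0.523 CPM. In each of these the exposed cells had the lower level of the tolerogenic groups. Clec4a1, a C-type lectin of a family with near-identical copies and so uncertain, went the other way, with 60.6 ± 0.956 CPM in BMDC, 60.1 ± 11.1 in LPS-exposed TolDC and 7.43 ± 1.53 in TolDC. Nrg1, a ligand of ERBB receptors, was at 27.4 ± 0.698, 21.6 ± 0.906 and 3.89 ± 0.243 CPM in the same order, and Sash1, a scaffold of Toll-like receptor 4 signalling, at 7.07 ± 1.10, 7.29 ± 0.948 and 1.42 ± 0.0640 CPM. Bag2 and Dpy19l3 were at 9.03 ± 0.908 and 14.03 ± 1.33 CPM in BMDC and at 10.5 ± 0.663 and 14.9 ± 0.390 CPM in LPS-exposed TolDC.

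A further set lay below the resting level in LPS-exposed TolDC although BMDC + LPS stood above it. The 10 with the widest gap between the LPS-exposed groups were chosen by these levels, so the values describe and do not test. Ramp3, a partner of the calcitonin-like receptor, was at 43.7, 43.1 and 44.6 CPM in BMDC, 3.79, 3.19 and 3.62 CPM in LPS-exposed TolDC and 88.7 ± 3.40 CPM in BMDC + LPS. All LPS-exposed TolDC libraries lay far below BMDC (-3.63 ± 0.07). Tspan7, a tetraspanin of dendritic cell protrusions, was at 27.1, 26.4 and 26.6 CPM in BMDC and 2.19, 1.51 and 2.01 CPM in LPS-exposed TolDC (-3.80 ± 0.14), against 34.5 ± 4.60 CPM in BMDC + LPS. Apol7c, an apolipoprotein L of dendritic cells, was at 14.8 ± 1.32, 1.54 ± 0.139 and 34.3 ± 7.98 CPM in BMDC, LPS-exposed TolDC and BMDC + LPS (-3.26 ± 0.21). Mucl1, a mucin-like protein, had 10.1 ± 0.348, 0.205 ± 0.0932 and 28.1 ± 3.05 CPM (-5.57 ± 0.28), and Adra2a, an adrenergic receptor, 3.85 ± 0.283, 0.0940 ± 0.0426 and 5.07 ± 0.418 CPM (-5.36 ± 0.42). Lad1, an anchoring filament protein, was at 4.91 ± 0.333, 2.08 ± 0.349 and 43.5 ± 4.28 CPM (-1.24 ± 0.15). Fam89a, Plek2 and Klk1b9, the last a kallikrein with near-identical copies, had log2 differences of -2.80, -2.27 and -3.78. Amelx, an enamel matrix gene, was the least sure, at 3.04 ± 0.457 and 1.86 ± 0.612 CPM (-0.74 ± 0.25), and lost its call under 5 alternatives, among them leaving out BMDC replicate 1 (-0.61), TolDC + LPS replicate 2 (-0.69) or TolDC + LPS replicate 3 (-0.53).

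Receptors for chemoattractants moved both ways and held 1 of the deepest falls. Of 20 tested members 7 were lower, 10 higher and 3 at the BMDC level, against 37.6%, 39.3% and 41.7% of all genes. Their median log2 difference was 0.41. Ccr2, the receptor that draws monocytes and their progeny to inflamed tissue (ENSMUSG00000049103, chromosome 9, 124101950 to 124113557, plus strand), was at 1092, 1058 and 1000.2 CPM in BMDC and at 1.86, 3.16 and 2.65 CPM in LPS-exposed TolDC. The log2 difference was -8.68 ± 0.11 (edgeR adjusted p = 8.09e-19). BMDC + LPS held 46.5 ± 1.22 CPM and TolDC 49.0 ± 2.58 CPM, so both lay between BMDC and LPS-exposed TolDC. Genes named for the widest differences were picked among called genes without overlap, so their separation is a description and no further support. Cxcr2, the receptor of CXCL1 and its kin, was at 145, 146 and 143 CPM in BMDC and 4.70, 9.62 and 9.49 CPM in LPS-exposed TolDC (-4.17 ± 0.18). Cxcr2 is also a neutrophil marker, and TolDC held 192 ± 4.60 CPM of it. Ccr1 lay at the BMDC level, slightly lower (-0.45 ± 0.04). Receptors for formyl peptides and chemerin were among those above. Fpr1 was at 8.79, 18.5 and 17.3 CPM in BMDC and 129, 229 and 201 CPM in LPS-exposed TolDC (3.65 ± 0.40), Ccrl2, which presents chemerin, at 11.4 ± 0.905 and 202 ± 8.97 CPM (4.16 ± 0.06), and Cxcr5, the receptor of CXCL13, at 0.415 ± 0.0527 and 7.73 ± 0.912 CPM (4.21 ± 0.20).

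C-type lectins, receptors that recognise sugars on microbes and cells, were mostly below the resting level. Of 21 tested, 13 were lower, all of them by at least 2-fold, 7 were higher and 1 was at the BMDC level, with a median of -1.38. Over all genes 37.6% were lower, 13.8% by at least 2-fold, 39.3% higher and 41.7% at the level. Side by side, the median of the list was -0.86 for BMDC + LPS minus BMDC and -0.62 for TolDC minus BMDC. Mrc1, which takes up mannosylated glycoproteins (ENSMUSG00000026712, chromosome 2, 14229392 to 14332057, plus strand), was at 481, 426 and 409 CPM in BMDC and 6.01, 4.71 and 5.18 CPM in LPS-exposed TolDC. Its log2 difference was -6.37 ± 0.14 (edgeR adjusted p = 1.76e-11), and TolDC without LPS held 182 ± 12.2 CPM. Mrc1 was low in BMDC + LPS too, with 1068 counts over the group against 36267 in BMDC, not scaled for depth. Clec4b1 was at 65.6, 65.4 and 64.8 CPM in BMDC and 0.490, 0.639 and 0.471 CPM in LPS-exposed TolDC (-6.94 ± 0.20) and Clec10a, a galactose-type lectin, at 38.9, 47.1 and 45.4 CPM in BMDC and 0.979, 1.11 and 0.867 CPM in LPS-exposed TolDC (-5.48 ± 0.16). Clec4e, the receptor Mincle for mycobacterial glycolipid, stood apart from them, at 3.85, 4.89 and 4.05 CPM in BMDC and 549, 620.2 and 597 CPM in LPS-exposed TolDC (7.10 ± 0.19, edgeR adjusted p = 1.33e-10). Its neighbour in function Clec4d was higher as well (3.55 ± 0.12), as was Olr1, a receptor for oxidised lipoprotein (2.08 ± 0.08). Asgr2, a chain of the asialoglycoprotein receptor that was outside the list, was at 31.6 ± 2.62 and 0.331 ± 0.118 CPM (-6.61 ± 0.23).

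Pattern recognition genes lay on both sides of the resting level, as all genes did. Of 29 tested members of the Toll-like receptor and LPS recognition list, 12 were lower, 15 higher and 6 at the BMDC level (median 0.16). Tlr4, the LPS receptor itself, was at 131, 126 and 121 CPM in BMDC and 47.7, 55.7 and 52.0 CPM in LPS-exposed TolDC, lower in every library (-1.29 ± 0.05, edgeR adjusted p = 2.02e-14). Cd14, which hands LPS to that receptor, was at 31.5, 33.7 and 35.6 CPM in BMDC and 649.9, 685 and 674 CPM in LPS-exposed TolDC, higher in every library (4.32 ± 0.05, edgeR adjusted p = 2.48e-21). Tlr8, a sensor of RNA, was at 43.5 ± 4.62 and 4.10 ± 0.804 CPM (-3.40 ± 0.15), and Tlr11, a sensor of profilin and flagellin that was not in the list, at 21.7, 19.998 and 19.0 CPM in BMDC and 0.0326, 0.0336 and 0.0743 CPM in LPS-exposed TolDC (-8.55 ± 0.49). Tlr2, the receptor of lipoproteins, was higher (2.18 ± 0.15), and Myd88, an adaptor of most Toll-like receptors, and Unc93b1, a chaperone of those in endosomes, lay at the BMDC level (-0.18 ± 0.04 and -0.22 ± 0.04).

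Receptors for dead cells, antibodies and modified lipoprotein also lay on both sides, as all genes did. Of 33 tested, 16 were lower, 15 higher and 6 at the BMDC level, with a median of -0.36. The shares over all genes were 37.6%, 39.3% and 41.7%. Fcrls, an Fc receptor-like scavenger, was at 112, 107 and 103 CPM in BMDC and 1.53, 1.72 and 1.14 CPM in LPS-exposed TolDC (-6.22 ± 0.12). C1qb and C1qc, chains of the complement component that marks dead cells, were at 14.4 ± 1.41 and 8.64 ± 1.03 CPM in BMDC and 0.402 ± 0.0581 and 0.298 ± 0.00447 CPM in LPS-exposed TolDC (-5.13 ± 0.20 and -4.83 ± 0.29). The Fc receptors Fcgr3 and Fcgr2b were at the BMDC level (0.27 ± 0.04 and 0.19 ± 0.04), and Stab1, a scavenger receptor also listed among tolerance genes, was higher at 26.4 ± 4.20 against 2.57 ± 0.271 CPM (3.37 ± 0.18).

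Among the cytokines, few stayed at the resting level. Of 25 tested inflammatory cytokines, 20 were called higher, 17 of them by at least 2-fold, 1 lower, and 4 lay at the BMDC level, with a median of 3.10. Those 4 were Edn1, the vasoconstrictor endothelin (-0.27 ± 0.06), Csf1, a growth factor of macrophages (-0.02 ± 0.04), Tnfsf15 as above, and Il15, a growth factor of NK cells that was named after its value was seen (-0.13 ± 0.09). Edn1 was also the member called lower. Ifnb1, Csf3, Il1f6 and Il10 had at most 3 counts over the BMDC group, which left no room for a call of lower. A member could pass the filter through a group where it was high, so the numbers called and the median only describe. With Ifnb1, Csf3 and Il1f6, which had no counts in BMDC, set to their bounds the median was 3.10. Il6, which drives acute-phase and T cell responses, was at 4.16, 5.12 and 5.42 CPM in BMDC and 268, 292 and 281 CPM in LPS-exposed TolDC. Tnf was at 25.9, 28.6 and 29.1 CPM in BMDC and 213, 258 and 246 CPM in LPS-exposed TolDC. Both were above rest in every library (5.84 ± 0.17 and 3.10 ± 0.07, edgeR adjusted p = 1.26e-10 and 5.07e-14), with 463 ± 11.6 and 294 ± 18.6 CPM in BMDC + LPS.

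The chains of IL-12 and IL-23, cytokines that set the type of T helper cell, stood above rest too. Il12b, the p40 chain they share, was at 0.917, 0.875 and 0.818 CPM in BMDC and 8.94, 8.64 and 8.60 CPM in LPS-exposed TolDC (3.31 ± 0.17, edgeR adjusted p = 5.43e-14), against 185 ± 18.1 CPM in BMDC + LPS. Il12a, the p35 chain of IL-12, was at 0.106, 0.194 and 0 CPM in BMDC and 28.0, 35.6 and 35.4 CPM in LPS-exposed TolDC (8.18 ± 0.57, and 9.04 without BMDC replicate 2) and at 46.5 ± 2.91 CPM in BMDC + LPS. Il23a, the p19 chain of IL-23, was at 1.59 ± 0.463 and 16.7 ± 0.589 CPM (3.36 ± 0.18), against 96.2 ± 8.58 CPM. So for Il12b, Il12a and Il23a the level of LPS-exposed TolDC lay between those of BMDC and BMDC + LPS. Il23a, and with it Il1a and Il1b, the IL-1 cytokines, were chosen after their values were seen. Il1b was at 54.3, 57.7 and 59.9 CPM in BMDC and 2979, 3201 and 3111 CPM in LPS-exposed TolDC (5.76 ± 0.04), and Il1a at 59.9 ± 0.975 and 2746 ± 40.9 CPM (5.52 ± 0.04).

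Csf3, the growth factor of granulocytes, had no counts in BMDC and was at 14.9, 18.1 and 17.8 CPM in LPS-exposed TolDC, which is at least 467-fold higher than the floor of 3 counts over the BMDC group. Il1f6, which encodes IL-36 alpha, had no counts in BMDC either and was at 8.36, 17.8 and 14.1 CPM, at least 369-fold higher by the same floor. Il10 itself, the cytokine used to make the cells tolerogenic, had 1 count in BMDC and was at 0.294, 0.504 and 0.619 CPM in LPS-exposed TolDC, a ratio of 40.1 with an exact 95% counting interval of 6.87 to 1616. The BMDC count was in replicate 1, without which the fitted log2 difference moved from 4.87 to 6.76. The level of Il10 was low in each group, with 0.799 ± 0.291 CPM in BMDC + LPS.

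Chemokines showed a similar spread around Ccl22. Of 22 tested, 15 were higher, 6 lower and 3 at the BMDC level, with a median of 1.31. Over all genes 39.3% were higher, 37.6% lower and 41.7% at the level. The neutrophil attractants led the rises. Cxcl1 (ENSMUSG00000029380, chromosome 5, 90891241 to 90893115, plus strand) was at 0.176, 0.0324 and 0.0861 CPM in BMDC and 69.9, 70.1 and 69.7 CPM in LPS-exposed TolDC (9.43 ± 0.47, edgeR adjusted p = 9.67e-20). Leaving out BMDC replicate 1 moved this difference to 10.19. Cxcl2 and Cxcl3 were at 2.80 ± 0.544 and 9.74 ± 0.437 CPM in BMDC and at 611 ± 1.52 and 1601 ± 52.9 CPM in LPS-exposed TolDC (7.78 ± 0.16 and 7.36 ± 0.05). Ccl5, chosen after its values were seen, was at 72.9 ± 12.1, 1361 ± 92.5 and 3909.5 ± 93.7 CPM in BMDC, LPS-exposed TolDC and BMDC + LPS (4.22 ± 0.12). Below the resting level were Ccl24, which draws eosinophils, at 1342, 1241 and 1219.7 CPM in BMDC and 251, 227 and 231 CPM in LPS-exposed TolDC (-2.42 ± 0.05), and Cx3cl1, fractalkine, at 12.1, 13.7 and 14.4 CPM in BMDC and 2.02, 2.59 and 2.55 CPM in LPS-exposed TolDC (-2.48 ± 0.11). Ccl17, like Ccl22 a ligand of CCR4, was also below rest in each library (-0.43 ± 0.08, edgeR adjusted p = 0.000187), at 1364 ± 125 against 1835 ± 24.7 CPM, and Ccl6 lay at the BMDC level (-0.42 ± 0.04).

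NF-kB, the factor that many of these genes share, binds a motif that was searched in the 200 bases before each RefSeq start (build GRCm38.p6, 32851 windows, with a window for 10198 of the genes tested). The letters GGGA, any base and TTTCC, read on both strands, were in 3 of 15 chemokine windows (20%), in 2 of 19 windows of the inflammatory cytokines (10.5%) and in 0.286% of all windows. The windows of Cxcl1 (chr5:90891045-90891244, plus strand) and Il6 (chr5:30012914-30013113, plus strand) are shown because both genes rose far above rest and hold the motif, which is in capitals and starts 71 and 44 bases before the start.
Cxcl1: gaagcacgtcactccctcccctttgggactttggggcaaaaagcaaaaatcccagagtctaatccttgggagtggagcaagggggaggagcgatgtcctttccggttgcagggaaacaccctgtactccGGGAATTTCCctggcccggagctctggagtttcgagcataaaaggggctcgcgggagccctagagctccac
Il6: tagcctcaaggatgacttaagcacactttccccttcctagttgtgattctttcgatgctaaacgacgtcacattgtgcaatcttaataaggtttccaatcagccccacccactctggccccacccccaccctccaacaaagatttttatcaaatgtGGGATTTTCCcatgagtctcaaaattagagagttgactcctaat
A match is a description of the letters and not a shown binding site.

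NF-kB subunits and their feedback regulators were nearly all above the resting level. Of 30 tested, 27 were higher, 3 lower and 6 at the BMDC level, with a median of 1.09. Nfkbiz, a nuclear co-factor of NF-kB needed for Il6, was at 3.25, 3.53 and 3.96 CPM in BMDC and 61.6, 63.2 and 65.2 CPM in LPS-exposed TolDC (4.15 ± 0.09). Tnfaip3, the inhibitor A20, was at 70.4 ± 2.56 and 427 ± 4.53 CPM (2.60 ± 0.04), and Traf1, an adaptor of TNF receptors, at 43.7 ± 0.712 and 256 ± 0.473 CPM (2.55 ± 0.04). The 3 called lower were Nfkbid, Tnip3 and Rel, and all lay within the margin (-0.37 ± 0.04, -0.30 ± 0.04 and -0.19 ± 0.06). Rel, the NF-kB subunit that serves Il12b and Il23a, was at 156, 148 and 137 CPM in BMDC, 135, 125 and 126 CPM in LPS-exposed TolDC and 293 ± 22.3 CPM in BMDC + LPS, and without BMDC replicate 1 its difference was not called.

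Interferon-stimulated genes, which defend against viruses, were mainly above rest. Of 43 tested, 33 were higher, 4 lower and 9 at the BMDC level, with a median of 0.92. Irf7, a factor that amplifies interferon, was at 4.80, 11.3 and 10.7 CPM in BMDC and 115, 139 and 133 CPM in LPS-exposed TolDC (3.86 ± 0.27). Isg15, a ubiquitin-like protein, was at 10.8, 11.2 and 13.5 CPM in BMDC and 128, 133 and 132 CPM in LPS-exposed TolDC (3.48 ± 0.06, edgeR adjusted p = 5.46e-19), and Ifit1, a sensor of viral RNA caps, at 5.30 ± 0.293 and 56.3 ± 7.01 CPM (3.41 ± 0.14). Against this run, Iigp1, a GTPase that attacks parasite vacuoles, was at 52.9, 52.6 and 51.0 CPM in BMDC and 11.4, 12.2 and 12.2 CPM in LPS-exposed TolDC, below rest in every library (-2.12 ± 0.09, edgeR adjusted p = 1.2e-11). Mx1, an antiviral GTPase, was lower too (-0.87 ± 0.05), as was Phf11d (-0.86 ± 0.09). Irf1 and Gbp7 were at the BMDC level (0.44 ± 0.05 and 0.19 ± 0.04).

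The interferon response element was searched as TTTC, any 2 bases and TTTC on both strands of the same windows. It was in 17 of 42 windows of the tested interferon-stimulated genes (40.5%) and in 2.27% of all windows, and in 2.78% of the windows of all genes called at least 2-fold higher. The windows of Isg15 (chr4:156200819-156201018, minus strand) and Ifit1 (chr19:34640689-34640888, plus strand) are printed because both genes rose and hold the motif. Capitals mark the matches, which overlap in Isg15, where they start 78, 72 and 66 bases before the start, and lie apart in Ifit1, at 104 and 85 bases.
Isg15: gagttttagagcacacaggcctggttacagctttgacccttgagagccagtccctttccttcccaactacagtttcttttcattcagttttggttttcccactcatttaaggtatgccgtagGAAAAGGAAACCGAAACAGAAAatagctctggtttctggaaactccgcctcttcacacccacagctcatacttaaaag
Ifit1: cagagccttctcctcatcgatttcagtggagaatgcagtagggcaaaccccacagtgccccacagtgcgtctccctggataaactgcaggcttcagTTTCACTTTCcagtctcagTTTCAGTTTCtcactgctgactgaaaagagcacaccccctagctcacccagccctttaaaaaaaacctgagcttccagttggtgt
Over all tested genes, the motif was in 2.89% of the windows of those called at least 2-fold lower, close to the share among those called higher.

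Genes linked to inhibition of T cells and to tolerance did not stand together. Of 28 tested, 15 were higher, 10 lower and 6 at the BMDC level, with a median of 0.23. Among all genes 39.3% were higher, 37.6% lower and 41.7% at the level. Cd274, the ligand PD-L1, was at 271, 265 and 262 CPM in BMDC and 1211, 1204 and 1209.8 CPM in LPS-exposed TolDC (2.18 ± 0.03, edgeR adjusted p = 9.91e-20), while Pdcd1lg2, the ligand PD-L2, was at the BMDC level (-0.09 ± 0.06). Hmox1, the haem-degrading enzyme, was at 332, 319.6 and 329 CPM in BMDC and 3525, 3004 and 3171 CPM in LPS-exposed TolDC (3.31 ± 0.05). Btla, an inhibitory receptor of the CD28 family, was at 0.353, 0.583 and 1.51 CPM in BMDC and 63.3, 54.2 and 54.5 CPM in LPS-exposed TolDC, so that its highest BMDC value was in replicate 3 (6.22 ± 0.34, and 6.90 without that library). Tgfb1 lay at the BMDC level (0.14 ± 0.04), and its slight excess was not called without BMDC replicate 2. Aldh1a2, which makes retinoic acid, was at 257, 243 and 243 CPM in BMDC and 23.7, 23.3 and 23.04 CPM in LPS-exposed TolDC, lower in each library (-3.41 ± 0.05, edgeR adjusted p = 4.19e-20) and at 1.98 ± 0.397 CPM in TolDC. Cd200r1, the inhibitory receptor of CD200, was at 191 ± 4.58 and 37.3 ± 1.496 CPM (-2.36 ± 0.06), so the ligand was above and the receptor below rest. Il1r2, the decoy receptor of IL-1, was lower (-2.07 ± 0.54, edgeR adjusted p = 0.00644), a call lost when the libraries numbered 2 and 3 were summed (edgeR adjusted p = 0.0921), with 10.6, 30.1 and 28.7 CPM in BMDC, where replicate 1 was low, and 3.98, 6.32 and 6.07 CPM in LPS-exposed TolDC.

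Genes of the IL-10 and vitamin D pathways were measured as well, and whether the treatment or the LPS moved them was not tested. Of 23 tested genes of the IL-10 receptor and STAT3 response, 20 were higher, 3 lower and 5 at the BMDC level (median 0.95). Side by side, the median of this list was -0.12 for TolDC minus BMDC and 0.83 for BMDC + LPS minus BMDC. It was 0.93 for TolDC + LPS minus TolDC. Socs3, which STAT3 induces and which damps cytokine signals, was at 71.7, 61.8 and 66.4 CPM in BMDC and 669, 673 and 661 CPM in LPS-exposed TolDC (3.33 ± 0.05). Il10ra, the IL-10 receptor chain, was at 92.7 ± 1.52 and 219.5 ± 5.72 CPM (1.24 ± 0.04), and Il1rn, the IL-1 receptor antagonist, at 183 ± 24.96 and 961 ± 69.3 CPM (2.39 ± 0.10). Of 20 tested vitamin D genes 10 were higher, 7 lower and 4 at the BMDC level (median 0.14). Beside both lists, 39.3% of all genes were higher, 37.6% lower and 41.7% at the level. Vdr, the vitamin D receptor, was at 346, 311 and 315 CPM in BMDC and 284, 238 and 248 CPM in LPS-exposed TolDC, within the margin (-0.34 ± 0.07). Cyp24a1 was at 626, 533 and 559 CPM in LPS-exposed TolDC, against the BMDC values above (7.21 ± 1.03, edgeR adjusted p = 0.000468). Without BMDC replicate 3 the log2 difference of Cyp24a1 was 14.70, and without BMDC replicate 1 or 2 it was 6.60 or 6.55. Pdgfa, a growth factor of connective tissue cells, was at 3.42, 3.50 and 7.10 CPM in BMDC and 342, 281 and 297 CPM in LPS-exposed TolDC (6.08 ± 0.22, and 6.46 without BMDC replicate 3). Fbp1, an enzyme of glucose synthesis that vitamin D is known to induce in myeloid cells, was at 162, 154 and 152 CPM in BMDC and 5.03, 4.07 and 4.61 CPM in LPS-exposed TolDC, lower in every library (-5.09 ± 0.08, edgeR adjusted p = 4.16e-20), with 103 ± 2.65 CPM in TolDC.

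Antigen presentation genes were above rest more often than below it. Of 14 tested genes of MHC class II presentation, 10 were higher, 4 lower and 1 at the BMDC level (median 0.67). H2-Ab1, a chain of the class II molecule, was at 327, 328 and 339 CPM in BMDC and 1406, 1174 and 1259 CPM in LPS-exposed TolDC (1.95 ± 0.05, edgeR adjusted p = 2.36e-16). H2-Eb1 was higher likewise (2.05 ± 0.05). The 4 members called lower were H2-Eb2, Ctss, H2-DMa and H2-DMb1. Ctss, the protease that trims the invariant chain, was at 3350.1, 3093 and 2998 CPM in BMDC and 1104, 1091 and 1094 CPM in LPS-exposed TolDC (-1.52 ± 0.04), and H2-DMa and H2-DMb1, which exchange peptide, had differences of -0.77 ± 0.04 and -0.54 ± 0.04. Of 22 tested genes of MHC class I presentation, 15 were higher, 3 lower and 10 at the BMDC level (median 0.44). Beside both MHC lists, 39.3% of all genes were higher, 37.6% lower and 41.7% at the level. H2-Q6, H2-Q7 and H2-Q4, non-classical class I genes with near-identical copies whose counts are therefore uncertain, had differences of 2.71, 2.70 and 2.20. The chaperones Pdia3, Canx and Calr had differences of -0.65 ± 0.04, -0.38 ± 0.04 and -0.04 ± 0.04, the last 2 within the margin.

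Among 37 tested transcription factors of dendritic and myeloid cells, 16 were lower, 15 higher and 8 at the BMDC level (median 0.04). Over all genes the shares were 37.6%, 39.3% and 41.7%. Irf4, a factor of type 2 conventional and monocyte-derived dendritic cells, was at 407, 373 and 378 CPM in BMDC and 431, 366 and 382 CPM in LPS-exposed TolDC, at the BMDC level (0.03 ± 0.07). Irf8 and Spi1, the latter encoding PU.1, were at that level too (0.10 ± 0.05 and -0.43 ± 0.05). Klf4, a factor of monocytes, was at 57.8, 54.6 and 55.8 CPM in BMDC and 5.26, 5.38 and 5.03 CPM in LPS-exposed TolDC (-3.43 ± 0.08), and Cebpe, a factor of granulocyte maturation, at 45.9, 47.6 and 48.1 CPM in BMDC and 3.62, 6.69 and 5.52 CPM in LPS-exposed TolDC (-3.16 ± 0.23). Both were below rest in every library. Runx3 was higher, at 130.0 ± 10.8 against 18.4 ± 0.974 CPM (2.83 ± 0.06), as were Cebpb and Maf (2.27 ± 0.16 and 2.02 ± 0.22). Nr4a3, an immediate-early factor of dendritic cell migration picked once its values had been seen, was at 67.3 ± 1.99, 23.5 ± 1.28 and 151 ± 15.1 CPM in BMDC, LPS-exposed TolDC and BMDC + LPS (-1.52 ± 0.07).

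Enzymes that make signalling metabolites lay on both sides of the resting level, as all genes did. Of 23 tested, 10 were lower, 9 higher and 3 at the BMDC level (median -0.06), against 37.6%, 39.3% and 41.7% of all genes. Kynu, an enzyme that breaks down kynurenine, was at 227, 213 and 211 CPM in BMDC and 7.90, 7.53 and 8.10 CPM in LPS-exposed TolDC. Kmo, another enzyme acting on kynurenine, was at 61.0, 60.5 and 57.7 CPM in BMDC and 1.83, 1.51 and 1.19 CPM in LPS-exposed TolDC. Neither overlapped between groups (-4.79 ± 0.06 and -5.33 ± 0.11, edgeR adjusted p = 5.55e-21 and 1.91e-19). Ptgs1, the constitutive cyclooxygenase, was at 441, 417 and 419 CPM in BMDC and 58.2, 55.9 and 57.0 CPM in LPS-exposed TolDC (-2.90 ± 0.04), whereas Ptgs2, the inducible one, was at 0.529, 0.551 and 0.818 CPM in BMDC and 1206, 998 and 1122 CPM in LPS-exposed TolDC (10.79 ± 0.24, edgeR adjusted p = 2.7e-16). So the constitutive enzyme was below and the inducible enzyme above rest. Ptges, which makes prostaglandin E2 from their product, was higher too, at 228 ± 9.23 against 3.87 ± 0.228 CPM (5.88 ± 0.13). Acod1, which makes itaconate, was at 80.9 ± 3.07 and 2918 ± 109 CPM (5.17 ± 0.04), and Nos2, the inducible nitric oxide synthase chosen after its values were seen, at 70.6 ± 4.26 and 2523 ± 234 CPM (5.16 ± 0.08).

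**Figure D3:**
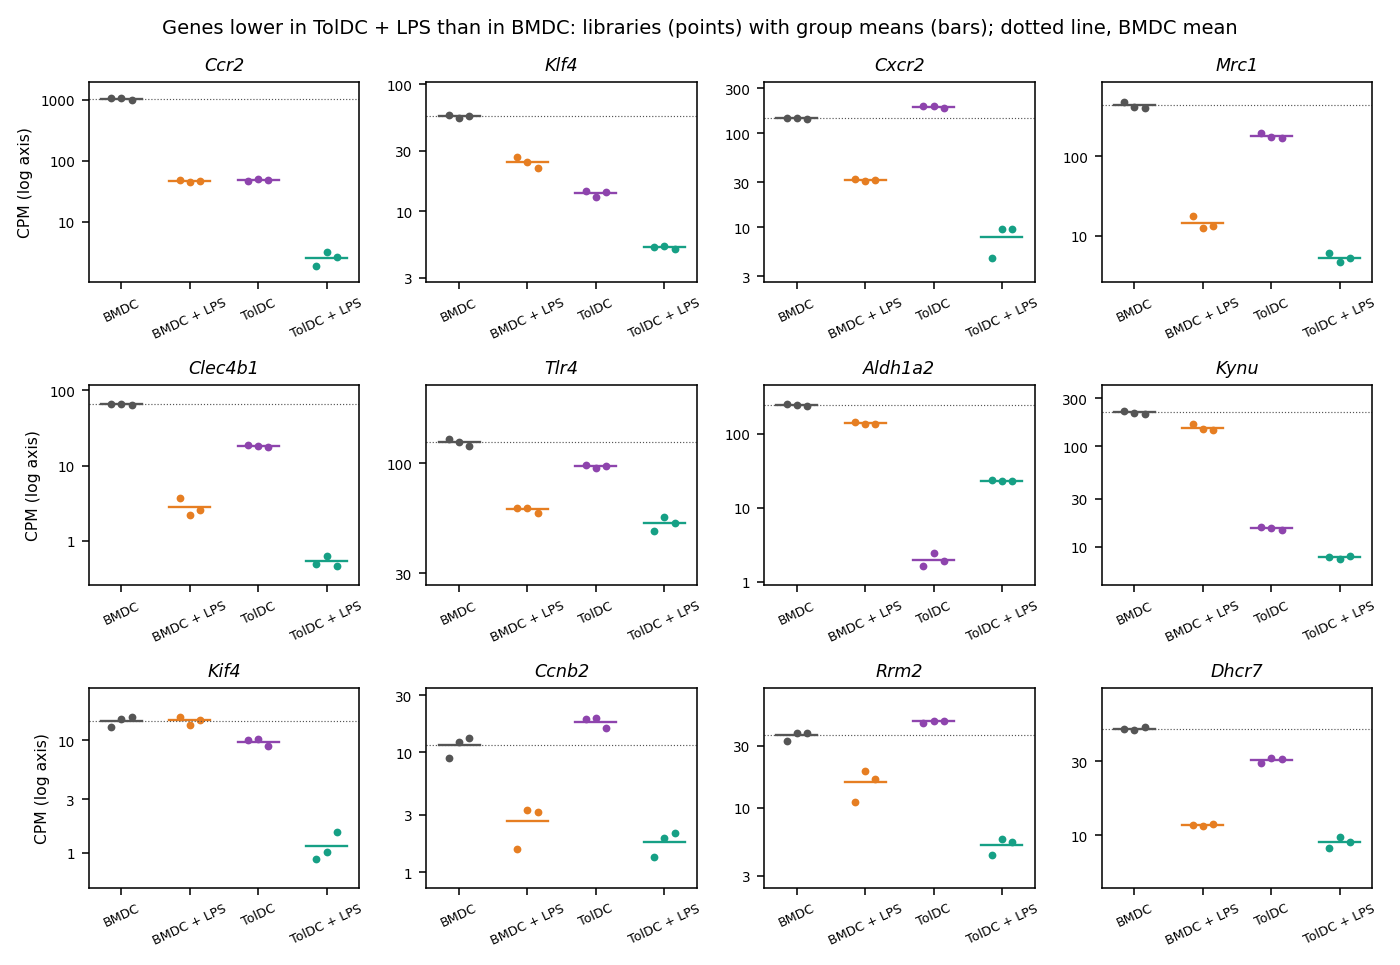
CPM (log axes) of 12 genes called lower in LPS-exposed TolDC than in BMDC, in every library of the 4 groups, with points for libraries, bars for group means and a dotted line at the BMDC mean. In LPS-exposed TolDC all 3 points lie below all 3 BMDC points for each gene, as for Ccr2, Mrc1 and Kif4.

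Cell division genes were below rest nearly throughout. Of 40 tested genes of mitosis and cytokinesis, 39 were lower, 35 of them by at least 2-fold, and 1 was higher, with a median of -2.51. Of 42 tested genes of DNA replication and the G1/S step, 40 were lower, 23 by at least 2-fold, 1 higher and 7 at the BMDC level, with a median of -1.06. Kif4, a kinesin of the mitotic spindle, was at 13.1, 15.6 and 16.3 CPM in BMDC and 0.881, 1.01 and 1.54 CPM in LPS-exposed TolDC (-3.67 ± 0.16, edgeR adjusted p = 9.23e-14). Cenpf, a kinetochore protein, and Anln, a scaffold of the cleavage furrow, were lower as well (-3.45 ± 0.29 and -3.37 ± 0.20). Rrm2, a chain of the enzyme that makes deoxynucleotides, was at 32.7, 38.1 and 37.8 CPM in BMDC and 4.37, 5.75 and 5.43 CPM in LPS-exposed TolDC (-2.80 ± 0.19), and E2f2 and Cdc6 had differences of -2.87 ± 0.20 and -2.76 ± 0.15. Cdk4 and Dnmt1 were within the margin (-0.46 ± 0.04 and -0.19 ± 0.04). Cenpa, the histone variant of centromeres, was the mitotic gene called higher, at 102 ± 8.50 against 62.9 ± 1.03 CPM (0.69 ± 0.05). TolDC without LPS held 9.74 ± 0.686 CPM of Kif4 and 46.3 ± 0.721 CPM of Rrm2. Control cells with LPS were below rest as well. For BMDC + LPS minus BMDC the list median was -1.655 for mitosis and -0.70 for DNA replication. For TolDC minus BMDC these medians were 0.41 and 0.30.

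Promoters of such genes are known to carry CCAAT boxes, bound by NF-Y, and the cell cycle homology region, whose core letters are TTTGAA. In the 200 bases before the start, on both strands, CCAAT was in 30 of 35 windows of the mitosis list (85.7%, 33 genes) and in 29.3% of all windows. TTTGAA was in 14 of the 35 (40%) and in 12.5% of all windows, and both were in 13 of the 35 (37.1%) against 3.69%. Neither motif was found in this list alone: TTTGAA was in 8 of 19 windows of the C-type lectins (42.1%) and CCAAT in 8 of 10 of MHC class II presentation (80%). Among windows of all genes called at least 2-fold lower, 32.9% had CCAAT and 12% had TTTGAA. Windows of genes with several starts overlap, so they are not independent. Ccnb2, the cyclin B2 that drives entry to mitosis, and Cdc20, which activates the anaphase-promoting complex, were chosen after their values were seen as examples with both motifs. Ccnb2 was at 8.96, 12.2 and 13.2 CPM in BMDC and 1.34, 1.92 and 2.11 CPM in LPS-exposed TolDC (-2.66 ± 0.26), and Cdc20 at 12.5, 13.3 and 14.6 CPM in BMDC and 2.74, 2.69 and 2.38 CPM in LPS-exposed TolDC (-2.37 ± 0.11). Their windows (chr9:70421555-70421754, minus strand, and chr4:118437344-118437543, minus strand) are shown with that of Kif4 (chrX:100625865-100626064, plus strand), which had CCAAT boxes on both strands and no TTTGAA. Capitals mark both motifs, which do not overlap, and ATTGG is CCAAT read on the other strand.
Ccnb2: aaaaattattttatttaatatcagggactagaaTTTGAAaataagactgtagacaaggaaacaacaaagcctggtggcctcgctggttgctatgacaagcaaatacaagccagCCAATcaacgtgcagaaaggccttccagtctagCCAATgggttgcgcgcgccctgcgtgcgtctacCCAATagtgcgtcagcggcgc
Cdc20: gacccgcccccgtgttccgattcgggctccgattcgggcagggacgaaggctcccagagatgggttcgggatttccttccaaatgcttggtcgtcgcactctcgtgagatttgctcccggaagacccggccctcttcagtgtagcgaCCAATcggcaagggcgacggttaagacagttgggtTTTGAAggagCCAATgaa
Kif4: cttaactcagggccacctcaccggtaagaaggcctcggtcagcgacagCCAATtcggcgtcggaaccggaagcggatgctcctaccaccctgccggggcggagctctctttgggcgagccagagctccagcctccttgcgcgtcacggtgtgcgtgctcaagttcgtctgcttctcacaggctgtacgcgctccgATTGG
In Cdc20 the TTTGAA starts 18 bases before the start, and in Ccnb2 167 bases before it.

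Transcripts of mitochondrial energy metabolism encoded in the nucleus were mostly below rest, many of them within the margin. Those of glycolysis and hypoxia were more often above it than below. Of 39 tested genes of oxidative phosphorylation, 30 were lower and 4 higher, yet 27 lay within the margin (median -0.32). Sdha, a subunit of complex II, was at 505, 473 and 471 CPM in BMDC and 252, 239 and 245 CPM in LPS-exposed TolDC (-0.97 ± 0.05), and Ndufs8, of complex I, had a difference of -1.21 ± 0.05. Of 32 tested genes of the TCA cycle and fatty acid oxidation, 30 were lower, 2 higher and 13 at the BMDC level (median -0.58). Idh2 and Idh3a, isocitrate dehydrogenases, were at 85.2 ± 3.79 and 91.9 ± 1.71 CPM in BMDC and 25.5 ± 0.7501 and 32.2 ± 1.26 CPM in LPS-exposed TolDC (-1.74 ± 0.05 and -1.51 ± 0.04). Of 32 tested genes of glycolysis and hypoxia, 22 were higher, 8 lower and 8 at the BMDC level (median 0.53). Vegfa, the growth factor of blood vessels, was at 62.2, 63.9 and 63.1 CPM in BMDC and 416, 354 and 363 CPM in LPS-exposed TolDC (2.58 ± 0.05), and Pfkfb3, which speeds glycolysis, at 37.3 ± 0.994 and 175 ± 1.10 CPM (2.23 ± 0.04). Pfkp and Pfkfb4 of the same list were lower (-1.32 ± 0.07 and -1.81 ± 0.05). Of 13 listed genes of the mitochondrial genome 8 were tested, with 2 called higher and 3 lower. Most lay within the margin, as did most nuclear genes of oxidative phosphorylation. Of the 8, 6 were at the BMDC level, among them mt-Co1 (0.05 ± 0.04). The other 2, mt-Nd3 and mt-Nd6, which encode subunits of complex I, were at least 2-fold lower (-1.44 ± 0.36 and -1.73 ± 0.22), and with counts of either strand mt-Nd6 was at -0.13 and mt-Nd3 at -1.95.

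Transcripts of lipid synthesis were mostly below rest. Of 32 tested genes of cholesterol and fatty acid synthesis, 27 were lower, 10 by at least 2-fold, 1 higher and 8 at the BMDC level (median -0.70). Dhcr7, the last enzyme of cholesterol synthesis, was at 48.2, 47.5 and 49.4 CPM in BMDC and 8.26, 9.79 and 8.97 CPM in LPS-exposed TolDC (-2.43 ± 0.06), and Scd1, which makes monounsaturated fatty acids, at 87.0 ± 5.57 and 14.8 ± 0.712 CPM (-2.56 ± 0.07). Acly, which makes acetyl-CoA for lipid synthesis, was within the margin (-0.35 ± 0.05), and the member called higher was Insig1, the sterol-regulated brake on the pathway (0.31 ± 0.05). Of 21 tested genes of cholesterol efflux and lipid handling, 10 were lower, 10 higher and 5 at the BMDC level (median 0.04). Among all genes 37.6% were lower, 39.3% higher and 41.7% at the level. Gpnmb, a glycoprotein of lipid-laden macrophages, was at 738, 667 and 685 CPM in BMDC and 4704, 4028 and 4205 CPM in LPS-exposed TolDC (2.63 ± 0.06). Lpl, which frees fatty acids from lipoproteins, was at 2896, 2941 and 2838 CPM in BMDC and 638, 540.1 and 565 CPM in LPS-exposed TolDC (-2.32 ± 0.05), and Plin2, a lipid droplet coat, lay at the BMDC level (0.04 ± 0.04).

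Stress and lysosome genes differed from list to list. Of 29 tested genes of oxidative stress and NRF2, 26 were higher, 3 lower and 7 at the BMDC level (median 0.75). Sod2, the mitochondrial superoxide dismutase, was at 129.9 ± 2.98 and 1086 ± 70.9 CPM (3.06 ± 0.05), while Gpx1 and Nfe2l2, the gene of NRF2 itself, were lower (-1.19 ± 0.04 and -0.55 ± 0.03). Of 24 tested genes of the ER and integrated stress response, 14 were lower, 9 higher and 3 at the BMDC level (median -0.63). Xbp1, a factor of the unfolded protein response, was at 391 ± 9.94 and 198 ± 1.68 CPM (-0.98 ± 0.03), and Slc7a11, the cystine transporter, at 301 ± 26.5 and 804 ± 29.8 CPM (1.42 ± 0.07). Of 32 tested lysosome genes, 14 lay at the BMDC level, 16 were lower and 13 higher (median -0.11). Among all genes 41.7% lay at the level, 37.6% were lower and 39.3% higher. Ctsk and Ctsc, cathepsins, were lower (-2.88 ± 0.06 and -1.93 ± 0.03), Ctsz higher (1.08 ± 0.04), and Ctsb and Ctsd within the margin (0.28 ± 0.05 and 0.50 ± 0.03).

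Secreted proteins of defence and matrix held several of the widest differences. Of 30 tested complement and acute-phase genes, 18 were higher, 7 lower and 3 at the BMDC level (median 1.34). Among them Saa1, with no counts in BMDC and 100 in LPS-exposed TolDC, could pass the filter only through the exposed group, so these numbers only describe. Saa3, a serum amyloid A of the acute phase (ENSMUSG00000040026, chromosome 7, 46711998 to 46715700, minus strand), was at 0.212, 0.583 and 0.473 CPM in BMDC and 2365, 2802 and 2699 CPM in LPS-exposed TolDC (12.58 ± 0.50, edgeR adjusted p = 5.79e-11), against 717 ± 128 CPM in BMDC + LPS. Serpinb2, an inhibitor of urokinase, was at 1.69, 1.75 and 1.248 CPM in BMDC and 298, 289 and 292 CPM in LPS-exposed TolDC (7.52 ± 0.13), and Plau, urokinase, at 241, 226 and 224 CPM in BMDC and 39.5, 37.3 and 39.9 CPM in LPS-exposed TolDC (-2.56 ± 0.05), so that the inhibitor was above and the protease below rest. Of 31 tested matrix, protease and repair genes, 18 were higher, 9 lower and 0 at the BMDC level (median 0.91). Loxl2, which cross-links collagen, was at 0.176, 0.162 and 0.0430 CPM in BMDC and 105, 88.8 and 94.9 CPM in LPS-exposed TolDC (9.45 ± 0.40), and Mmp14, a membrane-bound collagenase, at 3.18 ± 0.200 and 258 ± 6.35 CPM (6.35 ± 0.08). Fn1, fibronectin, and Ccdc80, a matrix protein, were below rest. Fn1 was at 48.1, 38.02 and 38.5 CPM in BMDC and 1.502, 2.35 and 1.71 CPM in LPS-exposed TolDC (-4.49 ± 0.17), and Ccdc80 at 50.2 ± 3.01 and 1.27 ± 0.291 CPM (-5.33 ± 0.14). Nppc, which encodes C-type natriuretic peptide and stood outside the lists, was at 0.141, 0.0972 and 0.215 CPM in BMDC and 128, 111 and 119 CPM in LPS-exposed TolDC (9.63 ± 0.37), with 27.9 ± 1.35 CPM in TolDC and 2.53 ± 0.306 CPM in BMDC + LPS.

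Kallikreins, serine proteases whose genes lie in a cluster, had the lowest median of the 30 lists, -5.23, with 9 of 11 tested members lower and 2 higher. Of 25 in the counts, 14 were below the filter, and 6 had no counts in either group. A member could pass the filter through the group where it was high, so these counts and the rank only describe. All 25 summed to 314.1 to 341.9 CPM in BMDC and 22.1 to 25 CPM in LPS-exposed TolDC. With Klk1b3 and Klk1b24, which had no counts in LPS-exposed TolDC, set to their bounds the median was -4.46. Klk15 (ENSMUSG00000055193, chromosome 7, 43933740 to 43939639, plus strand) was at 11.3, 12.4 and 12.5 CPM in BMDC and at 0, 0 and 0.0248 CPM in LPS-exposed TolDC. On 1 count in the exposed group, in replicate 3, its level was 1216-fold lower, with an exact 95% counting interval of 218 to 48078. Its fitted log2 difference moved from -9.71 to -11.33 without that library. Klk1b11 and Klk1b26, whose near-identical copies make their counts uncertain, had differences of -5.39 ± 0.20 and -6.26 ± 0.35, the latter -6.97 without TolDC + LPS replicate 3. Klk13, chosen after its values were seen, was among the 2 higher, at 1.89, 1.24 and 1.59 CPM against 1 count in BMDC (ratio 130.1, interval 23.02 to 5171), and the fitted log2 difference moved from 6.57 to 8.46 without BMDC replicate 1, which held that count, and to 6.20 without replicate 3. Of 13 tested MS4A membrane proteins 6 were lower and 4 higher, with 0 at the BMDC level (median 0.31, and 0.76 without BMDC replicate 2). Among all genes 37.6% were lower, 39.3% higher and 41.7% at the level. Ms4a7, a marker of macrophages, was at 6.74, 6.16 and 8.18 CPM in BMDC and 122, 109 and 109 CPM in LPS-exposed TolDC (4.03 ± 0.09), and Ms4a8a at 13.4 ± 1.32 and 0.517 ± 0.111 CPM (-4.71 ± 0.20).

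**Figure D4:**
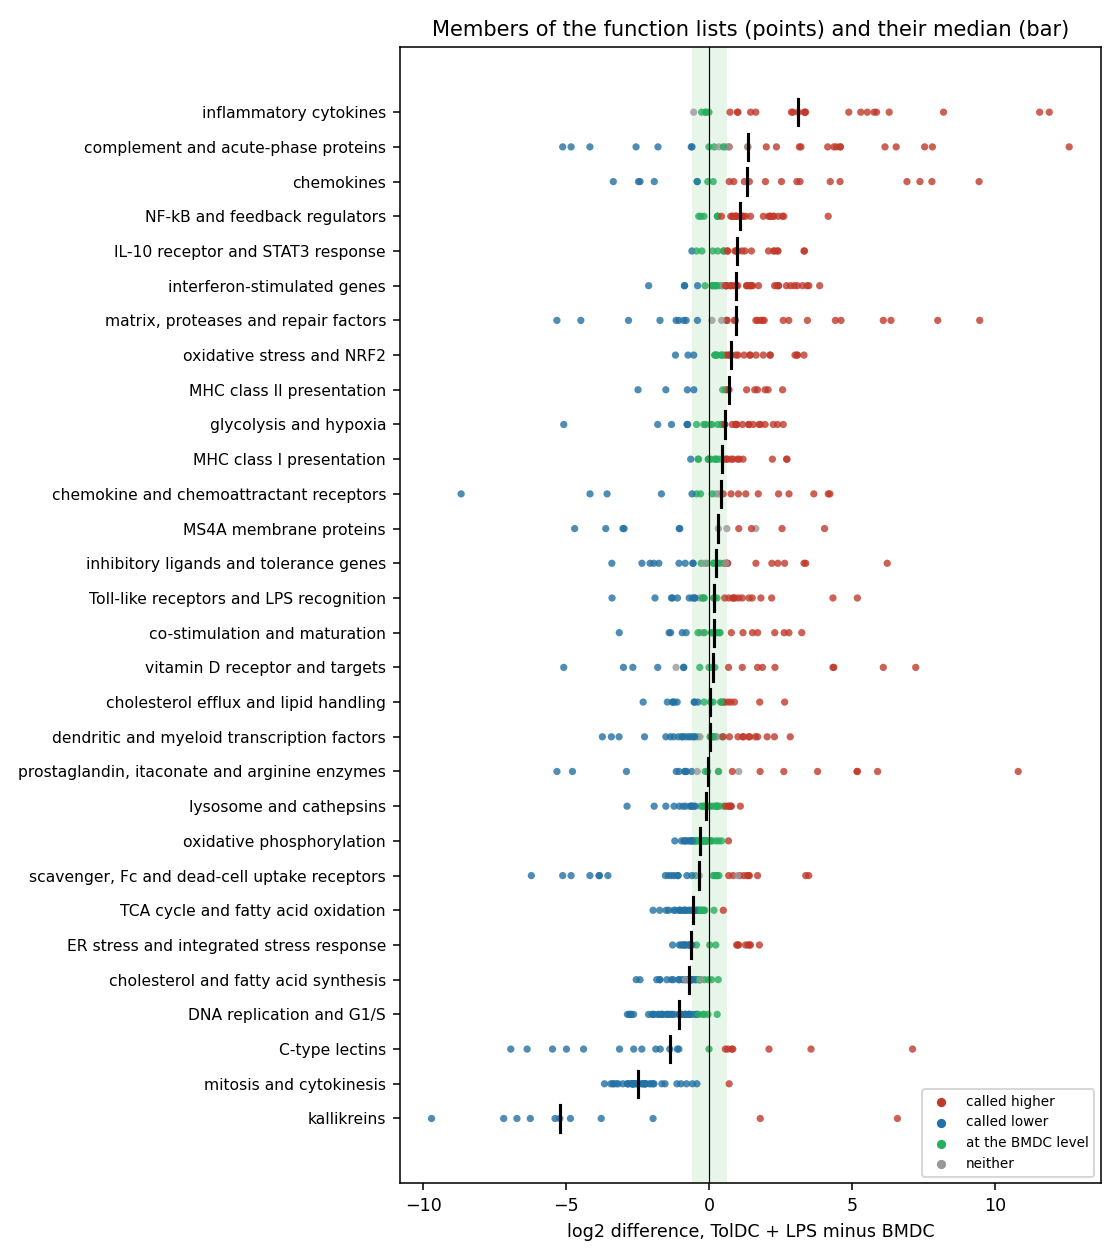
Log2 difference between LPS-exposed TolDC and BMDC (horizontal axis) of each tested member of 30 function lists (rows, ordered by their median), with points coloured by class, a black bar at each list's median and a green band for a 1.5-fold difference. Kallikreins, mitosis genes and C-type lectins lie lowest, at medians of -5.23, -2.51 and -1.38, and inflammatory cytokines highest, at 3.10.

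The remaining genes among the widest differences belonged to none of the function lists. Sprr2d and Krt17, genes of skin-like epithelium, had no counts in BMDC and were at 7.00 ± 0.694 and 5.65 ± 0.766 CPM in LPS-exposed TolDC, at least 192-fold and 156-fold higher. Dok7, an adaptor of the neuromuscular junction, and Iqsec3, an exchange factor of synapses, had 1 and 2 counts in BMDC, and their ratios were 499 (interval 89.2 to 19746) and 424 (interval 117 to 3505). Both counts of Iqsec3 were in BMDC replicate 3 and that of Dok7 in replicate 1, and the fitted log2 differences were 11.18 and 10.40 without those libraries, against 8.48 and 8.52 with them. Among the falls, Rnase6 and Rnase2b, antimicrobial ribonucleases, were at 67.8 ± 2.18 and 7.68 ± 0.382 CPM in BMDC and 1.01 ± 0.0594 and 0.107 ± 0.0857 CPM in LPS-exposed TolDC (-6.06 ± 0.11 and -6.21 ± 0.52, the latter -6.97 without TolDC + LPS replicate 1). Elane, neutrophil elastase, was at 2.01, 7.58 and 7.70 CPM in BMDC, with replicate 1 lowest as for other granulocyte genes, and at 0.0653, 0.135 and 0.0495 CPM in LPS-exposed TolDC (-6.10 ± 1.75, edgeR adjusted p = 0.000591). Mir9-3hg, a long non-coding host of a microRNA, was at 6.19 ± 0.407 and 0.0357 ± 0.0373 CPM (-7.14 ± 0.63, and -8.19 without TolDC + LPS replicate 3). Of 753 long non-coding genes tested, 268 were lower, 197 higher and 70 at the BMDC level (median -0.10), against 4666, 4963 and 5413 of 12361 protein-coding genes (median 0.0269).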

How the data were processed

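RNA was measured by sequencing in 12 libraries, 3 in each of 4 groups. The authors deposited read counts per gene for each library, made with STAR and cutadapt against mm10 (GRCm38), per the submitters' processing notes, which also name edgeR and limma; per the labels' protocols the library kit was a stranded mRNA kit. The stranded counts were used as deposited; reads that map to several places are not in them. Of 31054 identifiers 31011 matched a GENCODE M21 symbol. Genes passing edgeR's filterByExpr were fitted over all 12 libraries (edgeR 4.0.16, R 4.3.3, limma 3.58.1, TMM factors, robust quasi-likelihood test, Benjamini-Hochberg adjustment), and the fit was tested on simulated data. Members and gene lists were chosen with earlier results of these data known.

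Named genes were the 12 widest rises and 12 widest falls that were called without overlap (at least 5 CPM), 10 at the level and 10 below it with the widest excess of BMDC + LPS, the 5 and 5 at the level furthest from TolDC, up to 3 higher, 3 lower and 2 at the level per list, cell type markers and genes fixed by name. The widest rises and falls were thus fixed to be called and apart, and their calls and separation only describe. Alternatives were other strand counts, RLE factors, DESeq2 1.42.0, limma-voom, other filters and margins, fewer libraries, a replicate block and a fold threshold. Symbols on the lists that were missing from the counts (among them Clec7a, Mx2 and Aldoa) were not analysed here. A few members of the lists are not reported here by name.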

Additional observations from a re-analysis of the deposited data

How the results depend on the processing

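The number of genes at the BMDC level depended on the margin: it was 2676 with the narrower margin tried and 8241 with a margin of 2-fold, against 5485. Every other count stayed within 1.5 times its main value in the alternatives run. Leaving out each library in turn gave 4936 to 5054 genes higher, 4743 to 4915 lower, 1598 to 1674 at least 2-fold higher, 1807 to 1871 at least 2-fold lower and 5228 to 5382 at the level. Summing the libraries numbered 2 and 3 of each group, an alternative chosen after seeing the data, gave 4795, 4755, 1678, 1895 and 5092. The replicate number as a block gave 5365, 5101, 1665, 1834 and 5651. With that block 12 of 15 neutrophil markers were called lower, S100a9, Ly6g, Camp and Retnlg among them, against 8, while 9 markers of mast cells, basophils and eosinophils were called higher and 4 lower, against 3 and 2, and 10 of T and NK cells higher, against 1. The labels do not say that the numbers pair the libraries, and the main fit used no block. Same-numbered BMDC and TolDC + LPS libraries had correlated deviations of 0.091 to 0.33. BMDC replicate 1 had 0.33 with TolDC + LPS replicate 1, against -0.258 and -0.159 with replicates 2 and 3. Over all groups 17 of 18 same-number values exceeded 0.1, and 26 of 36 best matches were with a library's own number. The deviations thus went partly with the number, which the main fit left out.

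Over 370 named genes no difference changed sign in a call, 98 comparisons with an alternative lost a call or a place at the level and 67 gained one, of 5903. Depth limits genes with a few counts, whose fold changes rest on single libraries, and 1073 genes could not be placed in any class.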
